A study of Arabidopsis thaliana with 18 samples.

Results

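Casparian strip genes are the genes through which the root endodermis builds the lignin belt that seals its cell walls. The set described here holds 9 genes: CASP1 (AT2G36100), CASP2 (AT3G11550), CASP4 (AT5G06200) and CASP5 (AT5G15290), ESB1 (AT2G28670), PER64 (AT5G42180), MYB36 (AT5G57620), SGN3 (AT4G20140) and SGN1 (AT1G61590). They are defined by locus, and all 9 were found among 21430 probe sets, 1 probe set each. Arrays were hybridised with RNA of whole Arabidopsis thaliana seedlings, so endodermal RNA is a small part of each sample. In such bulk RNA, fewer endodermal cells and less RNA per cell cannot be told apart.

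The study induced members of the PLETHORA (PLT) family, AP2-type transcription factors that maintain the root stem cell region and act against differentiation. Every seedling carried a PLT protein fused to the glucocorticoid receptor (GR), driven by the constitutive 35S promoter, and the fusion enters the nucleus once dexamethasone (dex) is given. The lines were 35S::PLT1-GR (n = 3 libraries), 35S::PLT3-GR (n = 2), 35S::PLT4-GR (n = 3), 35S::PLT5-GR (n = 3) and 35S::PLT7-GR (n = 3), each given 10 µM dex for 6 h. The mock group (n = 4) was the 35S::PLT4-GR line given DMSO. Seedlings were 4 days old when moved to liquid medium, in flasks of about 50 pooled plants, and were induced the next day. Only the PLT4 comparison is therefore within 1 line. In the other comparisons line and treatment differ together, all 5 comparisons share the same mock libraries, and no library shows dex without a fusion. The sources used here do not say how many independent transformants stand behind a line.

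In the endodermis, CASP proteins gather in a membrane domain that marks where the strip will form and brings the lignin-making enzymes there. MYB36 is the transcription factor that switches on CASP genes, ESB1 and PER64 as endodermal cells differentiate. The receptor kinase SGN3 and the cytoplasmic kinase SGN1 then sense gaps in the barrier and drive the strip to close.

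Induced genes matched the labels in 17 of 18 libraries by their highest PLT probe set, and the exception was the library labelled PLT1 replicate 3. Its PLT1 value was 3.50, against 11.0 and 11.1 in replicates 1 and 2, and its PLT2 value was 10.3, against 3.67 to 6.07 elsewhere. Its actin 3′ to 5′ difference was 2.67, against 1.08 to 1.64 in the other 17 libraries. Weaker signals against the label were a PLT2 value of 6.07 in PLT5 replicate 3 and a PLT3 value of 6.49 in PLT7 replicate 1. The library labelled PLT1 replicate 3 was kept as labelled, so values of the PLT1 line include it unless stated. The counts in PLT1 and in the mean of the lines, the F test and some of the differences are also given without it. Values below are log2 expression values from the deposited table, and a gene was called when its limma p, adjusted by the Benjamini-Hochberg method over all probe sets, was under 0.05.

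In the PLT4 line, where mock and dex seedlings had the same genotype, 8 of the 9 genes fell and MYB36 was not called (adjusted p = 0.356). Of all probe sets 16.2% were called lower there. The median difference of the 9 genes was -1.12, beside -0.01 over all probe sets. The called differences in the PLT4 line ran from -0.33 for CASP4 to -2.38 for PER64.

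All 9 genes fell in the PLT1 line, where 22.9% of probe sets were called lower, and their median difference was -1.41 beside 0.01 over all probe sets. All 9 were again called without the library labelled PLT1 replicate 3, beside 23.0% of probe sets. In the PLT7 line all 9 fell (20.6% of probe sets lower) with a median of -1.28 beside 0.02. In the PLT3 line 7 fell (12.6% of probe sets lower) with a median of -1.06 beside 0.01, and CASP4 and MYB36 were not called. In the PLT5 line 8 fell (11.6% of probe sets lower) with a median of -0.86 beside -0.02, and MYB36 was not called. No member was called higher in any of these comparisons. In the mean of the 5 lines all 9 genes fell, beside 22.5% of probe sets, and again all 9 without the library labelled PLT1 replicate 3 (24.2%). For 8 of the 9 genes every dex library lay below every mock library, as did 9.45% of all probe sets. The exception was MYB36.

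**Figure D1:**
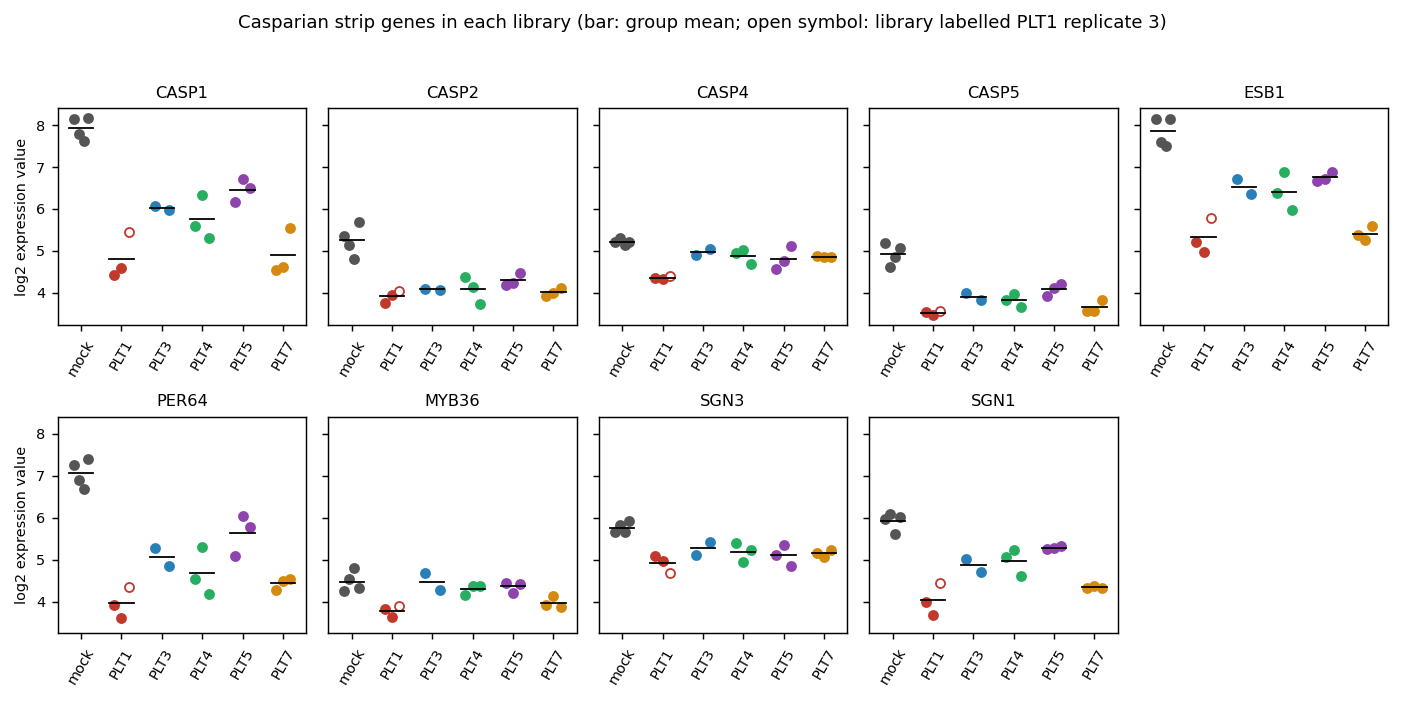
Log2 expression value (y axis) of each Casparian strip gene in every library, by group (x axis: mock and the 5 dex-treated lines), with a bar at the group mean and an open symbol for the library labelled PLT1 replicate 3. Dex libraries lie below all mock libraries for every gene except MYB36, and CASP1, ESB1 and PER64 show the widest spread among the lines.

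CASP1, CASP2, CASP4 and CASP5 are scaffold proteins of the strip's membrane domain. CASP1 stood at 8.15, 7.79, 7.61 and 8.17 in mock. It was 5.60, 6.34 and 5.31 in the PLT4 line, 6.08 and 5.97 in PLT3, and 6.17, 6.72 and 6.51 in PLT5. It was 4.42, 4.59 and 5.45 in PLT1 and 4.54, 4.63 and 5.54 in PLT7. The lowest mock library was 0.89 above the highest dex library, the widest such gap of the 9 genes. The difference from mock was -2.18 ± 0.29 (SE) in PLT4, a 4.52-fold lower level (adjusted p = 1.85e-05). It was -3.11 ± 0.29 in PLT1 (8.64-fold lower), -3.03 ± 0.29 in PLT7, -1.91 ± 0.32 in PLT3 and -1.47 ± 0.29 in PLT5, each called. Without the library labelled PLT1 replicate 3, in which CASP1 was 0.94 above the mean of the other PLT1 libraries, the PLT1 difference was -3.43 ± 0.27.

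CASP2 was 5.35, 5.15, 4.82 and 5.69 in mock. Over the 14 dex libraries it ran from 3.74 to 4.48, with a median of 4.09. Its groups did not overlap, and its differences from mock lay between -1.34 ± 0.17 in PLT1 and -0.95 ± 0.17 in PLT5, all called. Mock replicates 1 and 4 were the highest libraries, and PLT4 replicate 3 and PLT1 replicate 1 the lowest.

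CASP5 was 5.19, 4.62, 4.86 and 5.07 in mock and from 3.48 to 4.21 in dex, with a median of 3.83. In 12 of its 14 dex libraries the value was below the lower quartile of its own array, which lay between 3.96 and 4.06. Array values are compressed that close to background, so the fall of CASP5, from -1.41 ± 0.12 in PLT1 to -0.86 ± 0.12 in PLT5, may be understated, as may its differences between lines. CASP2 was below that quartile in 5 dex libraries, PER64 in 2, SGN1 in 1 and MYB36 in 5. No mock value of any of the 9 genes was below it.

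CASP4 had the smallest differences from mock of the 4 CASP genes described. It was 5.22, 5.32, 5.15 and 5.20 in mock, 4.94, 5.03 and 4.69 in PLT4, and 4.91 and 5.04 in PLT3. It was 4.56, 4.76 and 5.11 in PLT5, 4.87, 4.86 and 4.85 in PLT7, and 4.35, 4.33 and 4.41 in PLT1. Every dex library was below mock, but by as little as 0.04 between the closest libraries, and the PLT1 libraries formed the lowest group. The difference was -0.86 ± 0.11 in PLT1, -0.41 ± 0.11 in PLT5, -0.36 ± 0.11 in PLT7 and -0.33 ± 0.11 in PLT4. In PLT3 it was -0.25 ± 0.12 and was not called (adjusted p = 0.151, 95% interval -0.51 to 0.00). The PLT4 call ended without mock replicate 2 (adjusted p = 0.0598) or PLT4 replicate 3 (-0.23, adjusted p = 0.149), and the PLT5 call without PLT5 replicate 1 (-0.29, adjusted p = 0.0801).

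The enzymes and wall proteins that turn the CASP domain into a lignified strip fell as well. ESB1, a dirigent-domain protein that organises lignin at the strip, was 8.14, 7.59, 7.51 and 8.16 in mock. It was 6.39, 6.89 and 5.97 in PLT4, 6.70 and 6.36 in PLT3, and 6.67, 6.72 and 6.87 in PLT5. It was 5.22, 4.98 and 5.79 in PLT1 and 5.39, 5.25 and 5.60 in PLT7. These PLT1 and PLT7 libraries were all below every library of the other 3 lines. Its differences from mock were -1.43 ± 0.22 in PLT4 (adjusted p = 8.91e-05), -1.31 ± 0.25 in PLT3 and -1.10 ± 0.22 in PLT5. They were -2.52 ± 0.22 in PLT1 (-2.75 without the library labelled PLT1 replicate 3) and -2.44 ± 0.22 in PLT7.

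PER64, a class III peroxidase that oxidises lignin precursors at the strip, was 7.25, 6.90, 6.68 and 7.41 in mock. It was 4.55, 5.30 and 4.18 in PLT4, 5.28 and 4.85 in PLT3, and 5.09, 6.04 and 5.78 in PLT5. It was 3.91, 3.60 and 4.36 in PLT1 and 4.28, 4.49 and 4.55 in PLT7. PLT1 replicates 1 and 2 were the lowest and PLT5 replicates 2 and 3 the highest of the dex libraries. The difference was -2.38 ± 0.27 in PLT4 (5.22-fold lower, adjusted p = 4.03e-06), -1.99 ± 0.30 in PLT3 and -1.42 ± 0.27 in PLT5. It was -3.10 ± 0.27 in PLT1 (-3.31 without the library labelled PLT1 replicate 3) and -2.62 ± 0.27 in PLT7.

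MYB36, the activator of the genes above, had the smallest mean difference of the set. It was 4.25, 4.54, 4.80 and 4.32 in mock, 4.17, 4.36 and 4.37 in PLT4, and 4.68 and 4.27 in PLT3. It was 4.45, 4.22 and 4.42 in PLT5, 3.82, 3.63 and 3.90 in PLT1, and 3.93, 4.13 and 3.86 in PLT7. Only PLT1 and PLT7 libraries stayed wholly below mock, and those of PLT3, PLT4 and PLT5 overlapped it. The difference was -0.69 ± 0.13 in PLT1 (adjusted p = 0.00035), or -0.75 without the library labelled PLT1 replicate 3, and -0.50 ± 0.13 in PLT7 (adjusted p = 0.00515). It was -0.18 ± 0.13 in PLT4 (95% interval -0.46 to 0.10), -0.12 ± 0.13 in PLT5 (-0.39 to 0.16) and 0.00 ± 0.15 in PLT3 (-0.32 to 0.32), none of them called. These intervals leave room for falls of up to the lower bound given. The mean over the lines, -0.30 ± 0.10 (adjusted p = 0.0204), was no longer called without mock replicate 2 (-0.28, adjusted p = 0.0642) or mock replicate 3 (-0.19, adjusted p = 0.131), nor after quantile normalisation (-0.24, adjusted p = 0.0663). The 5 dex values below the lower quartile of their array belonged to PLT1 and PLT7. Mock values of MYB36, 4.25 to 4.80, were themselves little above these quartiles, which lay between 3.96 and 4.06. Its differences from mock may therefore be understated beside those of CASP1, ESB1 and PER64, which started higher.

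**Figure D2:**
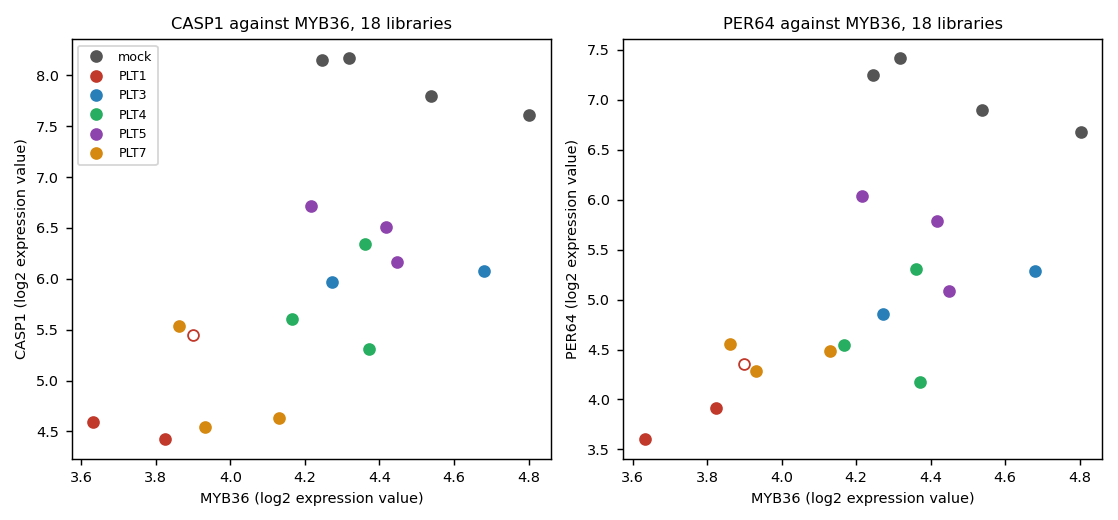
Log2 values of CASP1 (left, y axis) and PER64 (right, y axis) against MYB36 (x axis) in the 18 libraries, coloured by group, with an open symbol for the library labelled PLT1 replicate 3. In MYB36 the PLT3, PLT4 and PLT5 libraries, at 4.17 to 4.68, overlap mock, at 4.25 to 4.80, while their CASP1 values, 5.31 to 6.72, lie below the mock range of 7.61 to 8.17. MYB36 was below the lower quartile of the array in 5 libraries of PLT1 and PLT7, and in none of mock, PLT3, PLT4 or PLT5. Its mock values were little above these quartiles, so its falls may be understated.

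Both surveillance kinases fell in all 5 lines. SGN3, the receptor kinase for the peptides that report an open barrier, listed as GSO1 in the gene table, was 5.65, 5.83, 5.67 and 5.92 in mock and from 4.69 to 5.43 in dex, with a median of 5.10. Its groups did not overlap, and the lowest library was the one labelled PLT1 replicate 3. The difference was -0.58 ± 0.14 in PLT4 (1.49-fold lower, adjusted p = 0.00327), -0.85 ± 0.14 in PLT1, -0.66 ± 0.14 in PLT5, -0.61 ± 0.14 in PLT7 and -0.50 ± 0.15 in PLT3. The PLT1 difference was -0.74 ± 0.14 without that library. The PLT3 call (adjusted p = 0.0247) ended without PLT3 replicate 1 (-0.34, adjusted p = 0.297), mock replicate 2 (-0.48, adjusted p = 0.0510) or mock replicate 4 (-0.45, adjusted p = 0.0581).

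SGN1, a receptor-like cytoplasmic kinase that acts downstream of SGN3 and is named here from the locus given for it, was 5.96, 6.09, 5.61 and 6.03 in mock. It was 5.06, 5.24 and 4.61 in PLT4, 5.03 and 4.70 in PLT3, and 5.26, 5.27 and 5.32 in PLT5. It was 3.98, 3.69 and 4.45 in PLT1 and 4.33, 4.38 and 4.33 in PLT7. The PLT1 and PLT7 libraries were again below all those of the other 3 lines. Its difference was -0.95 ± 0.17 in PLT4 (1.94-fold lower, adjusted p = 0.000295), -1.06 ± 0.19 in PLT3 and -0.64 ± 0.17 in PLT5. It was -1.88 ± 0.17 in PLT1 (-2.09 without the library labelled PLT1 replicate 3) and -1.58 ± 0.17 in PLT7.

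**Figure D3:**
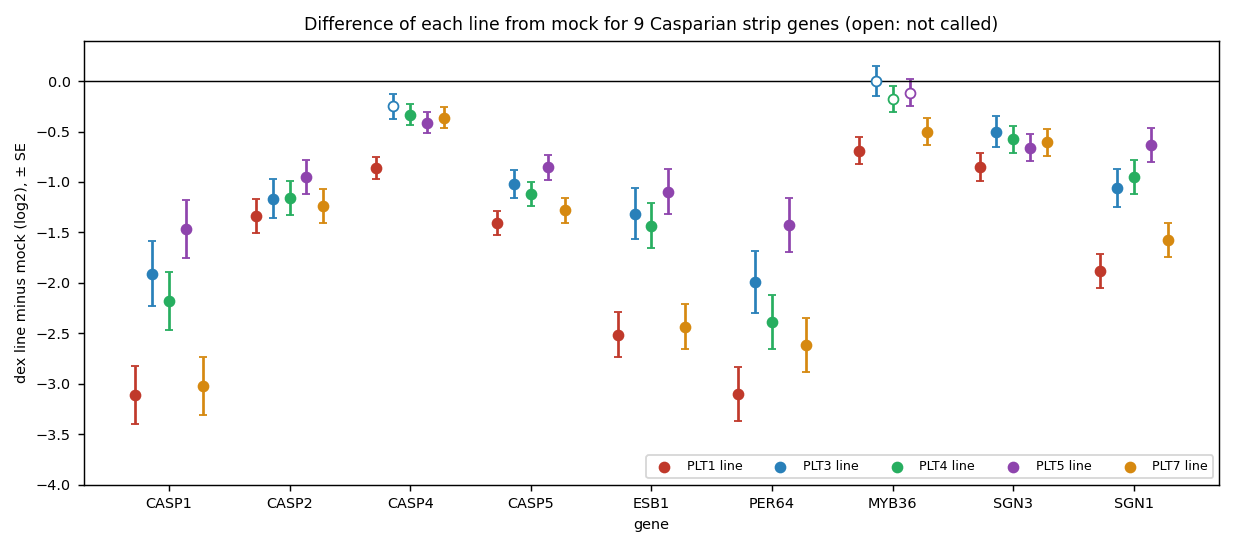
Difference of each dex line from mock (y axis, log2, ± SE) for the 9 Casparian strip genes (x axis), coloured by line, with open symbols where the difference was not called. CASP1, ESB1, PER64 and SGN1 are lowest in PLT1 and PLT7, SGN3 and CASP2 were not called among the lines, and the only open symbols are MYB36 in PLT3, PLT4 and PLT5 and CASP4 in PLT3.

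Whether the dex-treated lines differed from each other was tested by contrasts among them. Mock means played no part, but the mock libraries entered the shared estimate of spread. The F test among the 5 lines called 7 of the 9 genes, beside 27.1% of probe sets: CASP1, CASP4, CASP5, ESB1, PER64, MYB36 and SGN1. CASP2 (adjusted p = 0.498) and SGN3 (0.422) were not called. Without the library labelled PLT1 replicate 3 it again called these 7, beside 36.7% of probe sets. The CASP5 call (adjusted p = 0.0295) ended without PLT1 replicate 1 (0.0588) or 2 (0.0692), PLT5 replicate 2 (0.0834) or 3 (0.0993), or PLT7 replicate 1 (0.0526) or 2 (0.0530). It also ended without PLT1 replicate 3, PLT5 replicate 3 and PLT7 replicate 1, the 3 libraries with a signal against their label (0.139). PLT1 had the lowest mean of the lines for all 9 genes. PLT5 had the highest for CASP1, CASP2, CASP5, ESB1, PER64 and SGN1, and PLT3 for CASP4, MYB36 and SGN3.

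Over the 10 pairs of lines, 28 differences of these genes were called, beside 0.383% to 25.0% of all probe sets, depending on the pair. Of the 28, 14 were called under every alternative processing in which they were tested. How many calls of other probe sets stood likewise was not worked out. PLT1 and PLT5 stood furthest apart, with 7 genes called beside 25.0% of probe sets. PER64 was 1.68 ± 0.29 lower in PLT1 than in PLT5 on the log2 scale (difference -1.68, adjusted p = 0.000434) and CASP1 differed by -1.65 ± 0.31 (adjusted p = 0.000888). ESB1 and SGN1 differed by -1.42 ± 0.24 and -1.24 ± 0.18, and CASP4, CASP5 and MYB36 by -0.45 to -0.58. These 7 calls stood under every alternative. Without the library labelled PLT1 replicate 3, PER64 differed by -1.88, CASP1 by -1.96, ESB1 by -1.65 and SGN1 by -1.45, beside 33.8% of probe sets called.

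PLT5 also differed from PLT7 in 5 genes, beside 17.4% of probe sets. CASP1 was higher in PLT5 by 1.56 ± 0.31, ESB1 by 1.34 ± 0.24 and SGN1 by 0.94 ± 0.18, each under every alternative. The calls of PER64 (2.29-fold higher in PLT5) and CASP5 (1.34-fold) ended without 1 library: PER64 without PLT5 replicate 2 (adjusted p = 0.0506), and CASP5 without PLT5 replicate 2 or 3 or PLT7 replicate 1 or 2 (0.102 to 0.138). Without the 3 libraries with a signal against their label, CASP5 was 0.32 higher in PLT5 on the log2 scale (adjusted p = 0.236). All 3 PLT7 values of CASP5 and that of PLT5 replicate 1 were below the lower quartile of their arrays. Without the library labelled PLT1 replicate 3, MYB36 (adjusted p = 0.0490) was called as well, beside 23.8% of probe sets. It was also called without mock replicate 3 (0.0389), beside 17.7% of probe sets.

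PLT1 differed from PLT4 in 5 genes, beside 15.4% of probe sets. ESB1 (-1.08 ± 0.24), SGN1 (-0.93 ± 0.18) and CASP4 (-0.53 ± 0.11) were lower in PLT1 under every alternative. The MYB36 call (-0.51) ended without PLT1 replicate 2 or PLT4 replicate 2 or 3 (adjusted p = 0.0691 to 0.0807). The CASP1 call (-0.93, adjusted p = 0.0491) ended when any 1 of 15 libraries was left out, that is all but the third replicates of PLT1, PLT4 and PLT7, with adjusted p up to 0.238 without PLT4 replicate 2. Without the library labelled PLT1 replicate 3 the CASP1 difference was -1.25 (adjusted p = 0.00311). PER64 was then called too (-0.92, adjusted p = 0.0274), beside 24.6% of probe sets. PER64 was also called without PLT4 replicate 3 (adjusted p = 0.0465).

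PLT1 differed from PLT3 in 6 genes, CASP1, CASP4, ESB1, PER64, MYB36 and SGN1, beside 14.8% of probe sets, from 1.53-fold lower in PLT1 for CASP4 to 2.30-fold lower for CASP1 and ESB1. Each of the 6 calls ended without one or the other PLT3 library, with adjusted p from 0.0621 to 0.216. CASP1 and PER64 also lost theirs without PLT1 replicate 1 or 2 (0.0626 to 0.0916). PLT7 was below PLT3 in CASP1 (1.12, adjusted p = 0.0487) and ESB1 (1.12, adjusted p = 0.0125), 2 genes beside 9.90% of probe sets. That of ESB1 ended without PLT3 replicate 1 (0.146) or PLT7 replicate 2 (0.0507), and that of CASP1 without either PLT3 library, PLT7 replicate 1 or 2, PLT1 replicate 2, PLT4 replicate 1, or any mock or PLT5 library (0.0503 to 0.230). Without the library labelled PLT1 replicate 3, MYB36 (0.50, adjusted p = 0.0309) and SGN1 (0.52, adjusted p = 0.0357) were called between PLT3 and PLT7 too, beside 16.1% of probe sets. PLT7 was below PLT4 in ESB1 (1.00 ± 0.24) and SGN1 (0.62 ± 0.18), 2 genes beside 11.5% of probe sets. Those calls ended without PLT4 replicate 2 or PLT7 replicate 2 for ESB1 (0.0514 to 0.0620), and without PLT4 replicate 1 or 2 or any PLT7 library for SGN1 (0.0803 to 0.151). CASP1 was not called between PLT4 and PLT7 with all libraries (0.85, adjusted p = 0.0885). It was called without the library labelled PLT1 replicate 3 (0.0265), beside 18.2% of probe sets, or without PLT7 replicate 3 (1.17, adjusted p = 0.0259).

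PLT1 and PLT7, the lines of the lowest levels, differed in 1 gene, CASP4 (-0.50 ± 0.11, adjusted p = 0.0108), beside 8.30% of probe sets, a share near that background. The 95% interval of their difference was -0.73 to 0.56 for CASP1, -0.58 to 0.42 for ESB1 and -1.09 to 0.12 for PER64. With the library labelled PLT1 replicate 3 left out, these differences were -0.40 for CASP1, -0.31 for ESB1 and -0.69 for PER64, none of them called. SGN1 differed by -0.30 (-0.68 to 0.08) and was called without the library labelled PLT1 replicate 3 (-0.51, adjusted p = 0.0395), beside 16.2% of probe sets. Among PLT3, PLT4 and PLT5, no gene of the set was called. None reached an unadjusted p under 0.05 for PLT3 against PLT4, where 0.775% of probe sets were called, or for PLT3 against PLT5 (0.383%). For PLT4 against PLT5, with 2.12% of probe sets called, CASP1 (-0.71) and PER64 (-0.96) had an unadjusted p under 0.05. PER64 was called there without the library labelled PLT1 replicate 3 (adjusted p = 0.0331), beside 7.19% of probe sets, or without PLT4 replicate 2 (-1.27, adjusted p = 0.0446). With array weights it was called as well (-0.99, adjusted p = 0.00958).

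Across the 18 arrays the genes of the set varied together to different degrees, which is given as a description since the arrays share groups. Pearson's r over the 36 gene pairs had a median of 0.77 and ran from 0.41, for MYB36 with SGN3, to 0.98, for CASP1 with ESB1. Once each group's mean was taken out, the median over the pairs was 0.38. ESB1 with PER64 then had the highest r, 0.84, and MYB36 with SGN3 the lowest, -0.57. MYB36 and SGN3 had median r of -0.20 and -0.30 with the other genes on this scale. In mock, for instance, MYB36 was highest in replicate 3, where CASP1, CASP2, CASP4, ESB1, PER64 and SGN1 were at their lowest.

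The mean profile of CASP1, CASP2, CASP4 and CASP5 was also compared with 21110 probe sets of other genes, those that matched the gene table and shared no identical values with another. Of the genes in the set that are no CASP, PER64 had r = 0.97 with it over the 18 arrays, ESB1 0.95, SGN1 0.93, SGN3 0.78 and MYB36 0.61. Of these probe sets, 3725 had a higher r than MYB36, 1974 than SGN3, 116 than SGN1, 25 than ESB1 and 0 than PER64. An r over 0.9 was reached by 432 of them. The 10 nearest, with r from 0.96 to 0.97, were EXT13, PUT5, AT5G04960, ARP1, the ADP-ribosylation factor ARF1 (AT1G23490), AT3G06150, AT1G30750, ADF11, ACT8 and ACT2. Of these 10, 6 were again among the nearest 10 over the 17 arrays without the library labelled PLT1 replicate 3. EXT13, an extensin, had the highest r, and its mean was 4.31 in mock and between 3.09 in PLT1 and 3.56 in PLT5.

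Other genes of the pathway were taken from a list of 28, of which 25 had a probe set. In the mean of the 5 lines 15 were called lower (22.5% over all probe sets), 6 higher (23.0%) and 4 were not called, with a median of -0.42. In the PLT4 line 14 were lower (16.2% over all probe sets) and 4 higher (17.5%), with a median of -0.43. The counts of genes called higher are near the share over all probe sets. Among wall and lignin factors, the mean difference was -1.78 ± 0.11 for UCC1 and -1.74 ± 0.21 for UCC2, copper-binding uclacyanins of the strip. It was -1.98 ± 0.29 for PER72 and -1.81 ± 0.20 for PER3, both class III peroxidases, and -1.47 ± 0.14 for the laccase LAC3. The listed loci AT1G44970 (-2.16 ± 0.10), AT4G13580 (-1.61), AT4G11290 (-1.56), AT2G39430 (-1.26) and AT4G34600 (-1.13), given by locus alone, were lower too.

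RBOHD and RBOHF, NADPH oxidases that supply the oxidant for lignification, fell by 1.26 and 0.37 on the log2 scale. EXO70A1, an exocyst subunit that positions the CASP domain, fell by 0.61. MYB68, a MYB factor related to MYB36, fell by 0.42, and MGP, a zinc-finger partner of SHR and SCR, by 0.35. RBOHF was the only one of these 5 not called in PLT4.

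Upstream regulators of the endodermis on the list did not move one way. MGP fell, as given above, and JKD, another zinc-finger partner of SHR and SCR, was not called (-0.11). SHR, which moves from the stele into the endodermal layer, rose by 0.73 ± 0.11 in the mean of the lines, and SCR, its partner there, by 0.81 ± 0.09. In the PLT4 line they rose by 0.55 and 0.98. SCZ, the heat-shock-type factor of ground tissue stem cells listed as HSFB4, rose by 1.11 ± 0.10. TPST, which sulphates the peptides that SGN3 perceives, rose by 0.72 ± 0.18 in the mean, and in PLT4 its difference was 0.05, not called. GSO2, the closest relative of SGN3, rose by 0.55 ± 0.09 while SGN3 fell, and the locus AT5G56460 rose by 0.26.

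**Figure D4:**
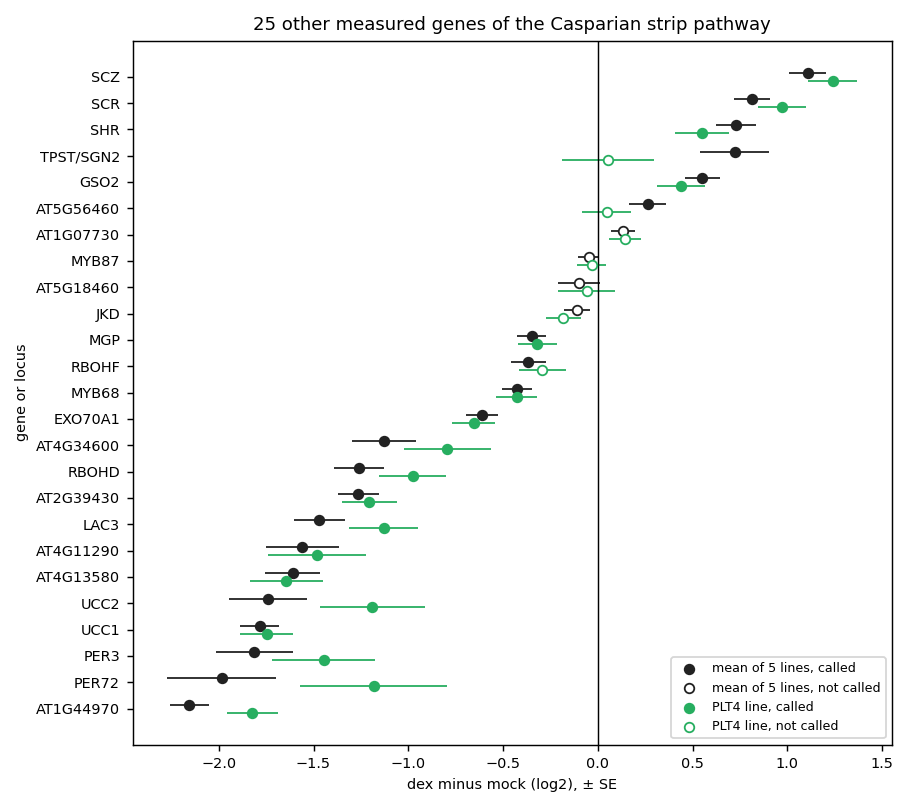
Difference between dex and mock (x axis, log2, ± SE) for 25 further genes of the Casparian strip pathway (y axis), as the mean of the 5 lines (black) and in the PLT4 line (green), with open symbols where not called. Wall and lignin genes such as UCC1, PER3 and PER72 lie below -1, SCZ, SCR, SHR and GSO2 lie above 0, and MGP lies below it.

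Of the 34 CASP-like genes, membrane proteins related to CASPs but outside the strip's scaffold set, 23 had a probe set. In the mean of the lines 13 were lower (22.5% over all probe sets), 3 higher (23.0%) and 7 not called, with a median of -0.31 beside -1.17 for the 9 strip genes and 0.00 over all probe sets. That gap is a description and was not tested. The lowest differences were those of CASPL2C1 (-1.86 ± 0.28), CASPL1B1 (-1.30 ± 0.22) and CASPL4D1 (-1.16 ± 0.15). CASPL2B1 (1.04 ± 0.13), CASPL2A1 (0.62 ± 0.10) and CASPL4A1 (0.30 ± 0.07) rose. In the PLT4 line 9 were lower and 3 higher, beside 16.2% and 17.5% of all probe sets.

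Markers of other differentiated cells moved in the same comparison. Of 11 genes of suberised endodermis, the later barrier of the same cell layer, 10 fell in the mean of the lines (22.5% of all probe sets lower) and 6 in the PLT4 line (16.2%). Their mean level per library was 5.75 to 6.21 in mock, 5.36 to 5.58 in PLT4, 5.05 to 5.10 in PLT3, 5.13 to 5.34 in PLT5, 4.54 to 5.25 in PLT1 and 4.50 to 4.65 in PLT7. Of 9 xylem genes 8 fell in the mean of the lines, and their mean level was 5.89 to 6.02 in mock, 5.11 to 5.43 in PLT4, 5.06 to 5.23 in PLT3, 5.56 to 5.58 in PLT5, 4.60 to 5.19 in PLT1 and 4.91 to 5.08 in PLT7. In the same mean, beside 22.5% of all probe sets lower and 23.0% higher, 5 of 6 root hair genes, 2 of 5 phloem genes and 2 of 3 pericycle genes fell. Of 3 root cap genes 1 fell and 1 rose, which is near that background, and of 2 cortex loci AT1G09750 fell and AT1G62500 rose. Both measured genes of green shoot tissue fell, GAPB by 0.51 and RCA by 0.30 on the log2 scale. No measured marker is at 0 on this scale, and the part of these changes in the fall of the strip genes was not tested.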

How the data were processed

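The authors deposited 1 table of log2 values for 18 single-colour arrays. RMA and limma 3.24.15 were used, per the submitters' processing notes, with no role or order given. RMA compresses differences near background and removes a shift shared by most genes. The sources used here give no build for the array annotation, so coordinates are left out, and no detection calls were used. Groups come from the sample titles. The growth protocol names 3 mock flasks and the sample titles 4 mock libraries, and where the other one came from is not stated. Whether flasks shared seed or medium is likewise not stated. The p-values measure the spread between libraries, and whether each mock library was a separate flask is not known.

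Of 21494 rows, 64 control rows were left out, and 21231 of 21430 probe sets matched the TAIR10.1 gene table, which served for naming. No member shared identical values with another probe set. All 18 arrays entered 1 limma fit (limma 3.58.1, R 4.3.3) with 1 coefficient per group, moderated tests (two-sided), and p-values adjusted by Benjamini-Hochberg over the 21430 probe sets, called under 0.05. Array medians were 5.70 to 5.80, and the number of arrays limits precision. On simulated data the fit recovered 94% to 100% of changes of 1 log2 unit, and 46% of falls of 0.5 in the PLT3 comparison. False calls made up 2.04% (PLT3) to 7.95% (PLT1) of the calls. The simulation changed 50 probe sets per size and direction, far fewer than were called in the data, so its rates do not carry over directly.

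Named genes are the 9 members described, the called genes of the pathway list, the 3 largest rises and falls of the CASP-like family, and the 10 probe sets nearest to the mean profile of the CASP genes named. JKD of the pathway list was named outside this rule, since it was not called. One gene of the set is not reported here and enters no count or profile of the set. GAPB, RCA, AT1G09750 and AT1G62500 were named after their values were seen. Members and lists were chosen with earlier results of these data known. Alternatives were leaving out each library, leaving out PLT1 replicate 3, PLT5 replicate 3 and PLT7 replicate 1 together, a replicate block, array weights, another variance prior, median centring, quantile normalisation, a filter on dim probe sets, fitting only the groups compared, and 1 adjustment over the 5 comparisons with mock. A planned promoter motif search was not run.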

Additional observations from a re-analysis of the deposited data

Results flagged for a closer look

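For 7 genes the level after dex differed among the 5 lines by the F test. The adjusted p was 0.000403 for SGN1, 0.000430 for ESB1, 0.00219 for CASP1, 0.00316 for PER64, 0.00540 for CASP4, 0.00839 for MYB36 and 0.0295 for CASP5. Line means spanned 1.68 log2 units for PER64, 1.65 for CASP1, 1.42 for ESB1, 1.24 for SGN1, 0.69 for MYB36, 0.61 for CASP4 and 0.55 for CASP5. In each of the 7 the PLT1 line was lowest. No mock library stood apart from the other 3 for any of the 9 genes by Dixon's criterion, and the smaller groups were not tested.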

How the results depend on the processing

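Against mock, 49 of 54 member values kept their direction and their side of the threshold under all alternatives run, and 15 of 1398 recomputed values changed. Many of the 1398 left out a library of a line outside the comparison. That leaves the difference as it was and can change only its p, so the count says little about stability. With dim probe sets left out, only CASP1 and ESB1 were tested, so the members called came to 2 in each line, in the mean of the lines and in the F test. With 1 library left out, the members called lower were 6 to 7 in PLT3, 7 to 8 in PLT4 and PLT5, 8 to 9 in the mean, and 6 to 7 in the F test, and stayed at 9 in PLT1 and PLT7. The shares over all probe sets moved as well. Without mock replicate 2, 11.5% were called lower in PLT3, 14.9% in PLT4, 10.1% in PLT5 and 20.7% in the mean. With all libraries these shares were 12.6%, 16.2%, 11.6% and 22.5%. In PLT1 and PLT7 they were 21.9% and 19.6% without mock replicate 2. The F test called 24.7% without PLT1 replicate 1. MYB36 in PLT3, at 0.00, ran from -0.20 to 0.21 with 1 library left out and was -0.012 with the replicate block and -0.0080 with array weights. The difference of PLT1 from PLT7 ran from -0.40 to 0.23 for CASP1 and from -0.31 to 0.10 for ESB1 with 1 library left out. Over all alternatives it was as low as -0.58 for CASP1 and -0.32 for ESB1. None of these 3 was called in any setting.

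Replicate numbers did not pair the libraries: over 40 same-numbered pairs the correlation of deviations ran from -0.16 to 0.24. With the replicate block, SGN3 in PLT3 was -0.49 (adjusted p = 0.0533) and no longer called, and no other member's call against mock changed. Between lines the block ended the calls of CASP1 for PLT1 against PLT4 (0.0655) and PLT3 against PLT7 (0.0565), and of SGN1 for PLT4 against PLT7 (0.0552). Fitted on the dex libraries alone, CASP1 lost its calls for PLT1 against PLT4 (0.0724) and PLT3 against PLT7 (0.0751). MYB36 was then called for PLT3 against PLT7 (0.0328) and PLT5 against PLT7 (0.0427). Array weights gave both of these calls too (0.00735 and 0.0101). They also gave calls of SGN1 for PLT3 against PLT7 (0.0134) and CASP1 for PLT4 against PLT7 (0.0212). MYB36 was called for PLT3 against PLT7 without mock replicate 1 (0.0480) or 3 (0.0284) as well, beside 9.68% and 9.99% of probe sets. Another variance prior gave the same call (0.0499). Over all probe sets, calls in PLT3 against mock went from 5476 to 3212 or 3303 with either PLT3 library left out, and in PLT5 lower calls from 2486 to 1572 without PLT5 replicate 1. Lower calls in the comparisons with mock were also fewer by over 1.5 times in PLT1 (3180), PLT7 (2931) and the mean (3145) with dim probe sets left out. That filter tested only probe sets with a mean level at or above the median. Fewer were therefore tested, and these counts do not show a lower share called. The F test gave 5807 calls, and 8880 with array weights. Between lines, calls over all probe sets ran over the alternatives other than the dim filter from 1437 to 5123 for PLT1 against PLT3, 2128 to 5262 for PLT1 against PLT4, 1060 to 3477 for PLT1 against PLT7, 37 to 1093 for PLT3 against PLT4, 16 to 609 for PLT3 against PLT5, 833 to 4364 for PLT3 against PLT7, 88 to 2575 for PLT4 against PLT5, 1607 to 4959 for PLT4 against PLT7 and 2473 to 6657 for PLT5 against PLT7. For PLT1 against PLT5 these calls ran from 3829 to 7236. Values close to background may limit the size of falls in CASP5, CASP2 and MYB36, which was not tested. Only 2 libraries in PLT3 limit every comparison with that line.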
